A study of Homo sapiens with 6 samples.

Results

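In all, 10 genes that drive or restrain the passage from G1 into S phase were followed across 6 Affymetrix arrays of A375, a human melanoma line that carries mutant BRAF. They are the D-type cyclins CCND1, CCND2 and CCND3, the E-type cyclins CCNE1 and CCNE2, the cyclin-dependent kinases CDK2, CDK4 and CDK6, and the inhibitors CDKN1A, which encodes p21, and CDKN1B, which encodes p27. They were chosen by name, with earlier results of these data known, and all 10 were among the 19676 genes measured. At 6 h the cells had received 10 µM vemurafenib, 100 nM AT9283, both drugs together, or the solvent DMSO. At 16 h they had received 10 µM vemurafenib or DMSO. Vemurafenib is an inhibitor of mutant BRAF. AT9283 acts on multiple kinases that include Aurora A, Aurora B and JAK2. Each condition had 1 array, so no difference given here could be checked in a replicate, and the small number of arrays limits how precise any value is.

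D-type cyclins bind CDK4 and CDK6, and these kinases phosphorylate the retinoblastoma protein RB and its relatives, which frees E2F transcription factors. E-type cyclins then bind CDK2, which completes the phosphorylation of RB and helps to fire replication origins, while p21 and p27 bind and restrain the CDK2 complexes. The CCND1 gene is a classical target of the ERK cascade that mutant BRAF keeps active in melanoma cells, and its product therefore links that cascade to the cell cycle.

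Values are log2 probe set intensities, and a difference is the log2 value of a treated array minus that of its control. A gene "rose" or "fell" where the difference reached at least 1, which is 2-fold, with the higher of both arrays at log2 6 or more, an intensity of 64. The rule concerns size alone and tests nothing. CCND2 lay below this floor on all 6 arrays and could not pass the rule, so 9 of the 10 genes were open to it in every comparison. With no drug, DMSO at 16 h minus DMSO at 6 h had an SD of 0.24 across 9055 genes at the floor, and 0.276% of them passed the rule, 0.188% upward and 0.0883% downward, with 0 of the 9 genes among them. AT9283 minus DMSO at 6 h had an SD of 0.13 across 8938 genes. These spreads are loose yardsticks, since the first also holds time and the second a drug.

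Of 10 measured melanocytic and melanoma markers 4 lay at or above log2 6 on all 6 arrays. They were the lineage genes SOX10 and MITF and the melanoma antigens CSPG4 and MCAM. The pigment genes PMEL, MLANA, TYR and TYRP1, and also S100A1, lay below it on all of them. S100B ranged from 5.03 to 6.15. None of the 4 measured leukocyte markers and none of the 4 endothelial markers was at the floor on all arrays. Of the 5 epithelial markers KRT8 and KRT18 were above the floor on all arrays, while EPCAM, CDH1 and KRT19 were below it throughout. Of the 5 fibroblast markers COL1A1 was above the floor on all arrays, while COL1A2, DCN, LUM and PDGFRA were below it throughout. The median intensity of an array was between 19.79 and 21.29. Since total RNA of whole cultures was measured, fewer cells in a phase of the cycle and less RNA per cell cannot be told apart.

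The 4 cyclins above the floor were lower with vemurafenib at both times, and they passed the rule at different times. After 6 h CCND1 alone of the 9 genes fell, and 0 rose, where 2.14% of 9095 genes at the floor fell and 1.03% rose, 3.18% in all. After 16 h CCND1, CCND3, CCNE1, CCNE2 and CDK2 fell and CDKN1A rose, so 5 of 9 fell where 5.79% of 9469 genes did, and 1 rose where 5.19% did, 11.0% in all. The median difference of the 9 genes was -0.48 at 6 h and -1.24 at 16 h, against medians of 0.02 and -0.00 over all genes at the floor. Centring each array on its median, which moves the 16 h difference by 0.13, turned the split of 491 rising and 548 falling genes at 16 h into 370 and 741.

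**Figure D1:**
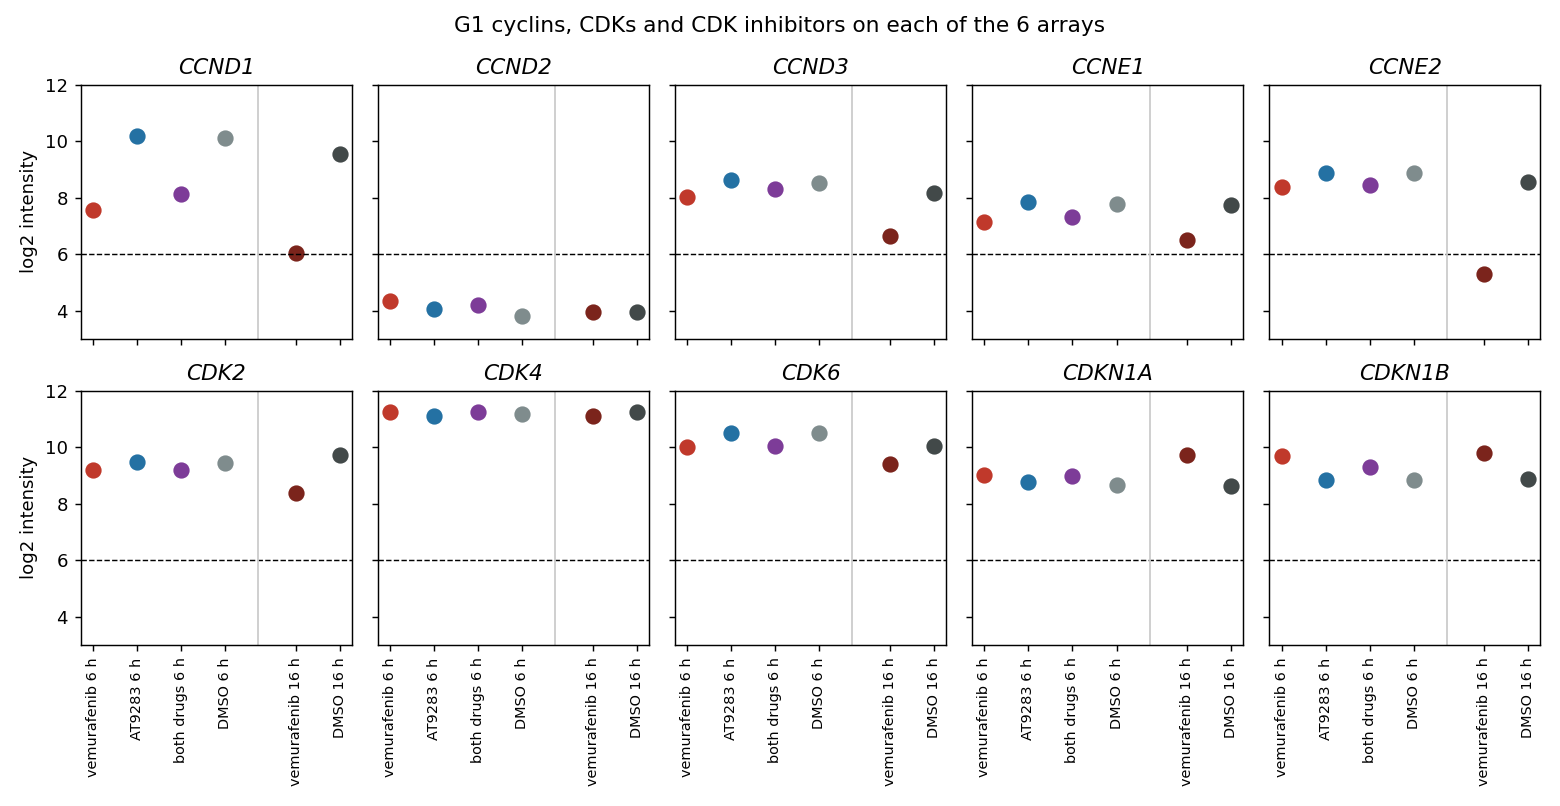
Log2 intensity (vertical axis) of each of the 10 genes on the 6 arrays, 1 point per array, with the 6 h arrays left of the grey line and the 16 h arrays right of it. The dashed line is the floor of log2 6; CCND1 is at 6.03 and CCNE2 at 5.31 under vemurafenib at 16 h, and CCND2 lies under the floor on every array.

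CCND1 encodes cyclin D1, the D-type cyclin with the widest swing on these arrays, and lies at chr11:69641156-69654474 in GRCh38.p14. At 6 h it stood at 7.56 with vemurafenib, 10.17 with AT9283, 8.15 with both drugs and 10.14 with DMSO. At 16 h it stood at 6.03 with vemurafenib and 9.55 with DMSO. The 3 arrays with vemurafenib were thus the 3 lowest, and the 16 h one was close to the floor. The levels ran in the order AT9283 at 6 h, DMSO at 6 h, DMSO at 16 h, both drugs, vemurafenib at 6 h and vemurafenib at 16 h, and only the first pair, 0.04 apart, lay closer than the SD of 0.13 seen between AT9283 and DMSO.

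The difference of CCND1 was -2.58 after 6 h of vemurafenib, a 5.98-fold fall, and 22 of 9095 genes had a lower one. After 16 h it was -3.52, an 11.5-fold fall, and 19 of 9469 genes had a lower one. Its second probe set gave -2.28 at 6 h and -3.19 at 16 h, and stood at 5.50 with vemurafenib at 16 h. Adding 16 to every intensity before the logarithm made the 16 h difference of the probe set used -3.23. At 6 h the gene had reached 73.3% of its 16 h log2 difference, a share that depends on the 16 h value near the floor. In a limma fit of the 4 vemurafenib and DMSO arrays with time as a block, CCND1 was lower by 3.05 (log2 -3.05, SE 0.26, Benjamini-Hochberg adjusted p = 0.0294), and 1.17% of the 9651 genes fitted were called, 0.839% as lower. CCND1 was the 1 called gene of the 9. This fit has 1 residual degree of freedom, which holds the change of the vemurafenib difference with time and not replicate error, and without the trended prior the limma adjusted p was 0.0550.

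CCND3, the gene of cyclin D3 at chr6:41934933-42050035, fell at 16 h. It stood at 8.03 with vemurafenib, 8.63 with AT9283, 8.31 with both drugs and 8.53 with DMSO at 6 h, and at 6.66 with vemurafenib and 8.18 with DMSO at 16 h. The 16 h vemurafenib array was the lowest by more than 1 log2 unit, while the 6 h arrays were within 0.60 of each other. The differences were -0.50 at 6 h, under the rule, and -1.52 at 16 h, a 2.86-fold fall. Its other probe set lay below log2 4.2 on all arrays and differed by 0.32 at 16 h, and the mean of both, -0.60, did not pass the rule. CCND2, the gene of cyclin D2 at chr12:4273762-4305353, ranged from 3.80 to 4.32 on its highest probe set, and its other 3 probe sets stayed below its highest value. No direction can be given for it near background.

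CCNE2, the gene of cyclin E2 at chr8:94880224-94896693, was under the rule at 6 h and fell at 16 h. At 6 h it stood at 8.38 with vemurafenib, 8.87 with AT9283, 8.46 with both drugs and 8.86 with DMSO. At 16 h it stood at 5.31 with vemurafenib and 8.57 with DMSO. All 5 other arrays lay within 0.49 of each other, and the 16 h vemurafenib array lay below the floor. The difference was -0.48 at 6 h and -3.26 at 16 h, a 9.59-fold fall, with 26 of 9469 genes lower. The second probe set gave -0.58 and -3.24. The size of the 16 h fall depends on a value near background, and adding 16 to every intensity before the logarithm made it -2.83. At 6 h only 14.8% of the 16 h difference was present, against 73.3% for CCND1.

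CCNE1, the gene of cyclin E1, moved less. It stood at 7.12 with vemurafenib, 7.84 with AT9283, 7.33 with both drugs and 7.79 with DMSO at 6 h, and at 6.50 with vemurafenib and 7.74 with DMSO at 16 h. The 3 arrays with vemurafenib were again the lowest, and the 3 without it were within 0.10 of each other. The difference was -0.67 at 6 h and -1.24 at 16 h, a 2.36-fold fall, so 53.9% of the 16 h difference was present at 6 h. A second probe set below log2 4 throughout gave -0.06 and -0.12, and the mean of both, -0.68 at 16 h, did not pass the rule. The limma fit of the 4 arrays gave CCNE1 a difference of -0.96 (SE 0.18, adjusted p = 0.114) and CCNE2 one of -1.87 (SE 0.66, adjusted p = 0.215). Both E cyclins missed its threshold.

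The 250 bases before the CCNE1 start, chr19:29811741-29811990 on the plus strand of GRCh38.p14 from RefSeq, are shown because CCNE1 is the E cyclin that fell and has an entry in the RefSeq promoter table. Capitals mark the GC box GGGCGG on either strand.
CCNE1: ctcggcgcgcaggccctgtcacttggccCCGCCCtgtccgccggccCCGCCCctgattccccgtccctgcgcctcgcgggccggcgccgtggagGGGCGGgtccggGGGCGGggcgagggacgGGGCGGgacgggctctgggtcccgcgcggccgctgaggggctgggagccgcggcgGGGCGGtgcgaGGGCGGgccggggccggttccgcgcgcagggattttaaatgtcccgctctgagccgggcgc
The GC box occurs 7 times in this window, and 42.6% of the 35116 windows of this length in the table hold it at least once on either strand. The E2F letters TTTCCCGC and TTTGGCGC, found in 1.39% and 0.550% of the windows on either strand, do not occur in it. At those shares most windows lack them, and bases after the start were not searched. Their absence here does not show that CCNE1 lacks E2F sites.

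CDK2, the kinase partner of both E cyclins at chr12:55966830-55972789, also fell late. At 6 h it stood at 9.18 with vemurafenib, 9.49 with AT9283, 9.18 with both drugs and 9.45 with DMSO. At 16 h it stood at 8.40 with vemurafenib and 9.72 with DMSO. The 16 h arrays were thus the highest and the lowest, and DMSO at 16 h exceeded DMSO at 6 h by 0.26. The vemurafenib difference was -0.27 at 6 h and -1.32 at 16 h, a 2.49-fold fall, and a second probe set above the floor gave -0.35 and -1.40. On that second probe set the DMSO arrays differed by 0.04. The remaining probe set, below log2 4.6, gave -0.06 at 16 h, and the mean over all 3, -0.92, did not pass the rule.

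CDK6, a partner of the D cyclins at chr7:92604921-92836573, was lower on the arrays with vemurafenib but under the rule. It stood at 10.02 with vemurafenib, 10.52 with AT9283, 10.03 with both drugs and 10.51 with DMSO at 6 h, and at 9.43 with vemurafenib and 10.06 with DMSO at 16 h. The DMSO array at 16 h lay near the 6 h arrays with vemurafenib. The vemurafenib difference was -0.50 at 6 h and -0.64 at 16 h, and that between the DMSO arrays, 16 h minus 6 h, was -0.45, lower than in 97.1% of genes. Both other probe sets above the floor on all arrays gave -0.43 and -0.47 at 6 h and -0.77 and -0.76 at 16 h. In the limma fit of the 4 arrays CDK6 had -0.57 (SE 0.14, adjusted p = 0.155), and with all 6 arrays and main effects of both drugs and time it had -0.54 (limma, SE 0.07, adjusted p = 0.0371). The fit of 6 arrays called 463 of 9707 genes for vemurafenib, against 113 of 9651 in the fit of 4. Its 2 residual degrees of freedom hold the interactions and not replicate error.

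A further CDK6 probe set was left out because its 6 h values belong to another row of the deposited table. As deposited it read 9.40, 9.07, 9.30 and 9.08 on the 6 h arrays with vemurafenib, AT9283, both drugs and DMSO, but 4.92 and 5.37 on the 16 h arrays with vemurafenib and DMSO. With the 6 h values of its block put back in the other sort order, it read 5.57, 5.89, 5.28 and 5.84 at 6 h. DMSO at 16 h minus DMSO at 6 h was then -0.48, near the -0.45 of the probe set used, in place of -3.71.

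CDK4, the other partner of the D cyclins, was level on all arrays. It stood at 11.24 with vemurafenib, 11.11 with AT9283, 11.24 with both drugs and 11.19 with DMSO at 6 h, and at 11.13 with vemurafenib and 11.24 with DMSO at 16 h. The highest and the lowest of the 6 values were 0.13 apart, about the SD between AT9283 and DMSO and less than the SD of 0.24 between the DMSO arrays. The vemurafenib difference was 0.05 at 6 h and -0.11 at 16 h, and limma gave -0.03 (SE 0.11, adjusted p = 0.886). CDK4 has 1 probe set on the array, so no other could check it.

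The 250 bases before the CDK4 start, chr12:57752311-57752560 on the minus strand of GRCh38.p14 from RefSeq, are shown because CDK4 differed least of the 9 genes and its window holds the E box CACGTG, letters that MYC is known to bind. Capitals mark the E box and the GC box GGGCGG on either strand.
CDK4: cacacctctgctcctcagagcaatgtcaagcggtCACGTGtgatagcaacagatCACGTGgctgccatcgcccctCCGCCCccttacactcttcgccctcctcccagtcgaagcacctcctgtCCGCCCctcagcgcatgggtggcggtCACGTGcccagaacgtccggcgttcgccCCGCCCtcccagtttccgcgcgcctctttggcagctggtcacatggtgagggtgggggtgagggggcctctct
The E box occurs 3 times, with first bases at -216, -196 and -101 relative to the start, and 6.34% of all 35116 windows hold at least 1. Of the 9 windows that the table has for 6 of the genes, that of CDK4 was the only 1 with an E box. A match of letters is a description and does not show binding.

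CDKN1B, the gene of p27, was higher on each array with vemurafenib, and early. It stood at 9.70 with vemurafenib, 8.83 with AT9283, 9.30 with both drugs and 8.84 with DMSO at 6 h, and at 9.81 with vemurafenib and 8.87 with DMSO at 16 h. The 3 arrays without vemurafenib lay within 0.05 of each other and below the other 3. The vemurafenib difference was 0.86 at 6 h, higher than that of 98.6% of genes, and 0.94 at 16 h, higher than that of 94.2%. Both were just under the size rule, and quantile normalization put the 16 h value over it, at 1.04. At 6 h the gene had reached 91.7% of its 16 h difference. Limma on the 4 arrays gave 0.90 (SE 0.15, adjusted p = 0.0930), and limma on all 6 arrays gave 0.76 (SE 0.12, adjusted p = 0.0493). As for CDK6, only the fit of 6 arrays put the gene under 0.05. That fit called 463 of 9707 genes and holds no replicate error.

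The 250 bases before the CDKN1B start, chr12:12717118-12717367 on the plus strand of GRCh38.p14 from RefSeq, are shown because CDKN1B was the inhibitor gene with the larger vemurafenib difference at 6 h. Capitals mark the CCAAT box and the GC box GGGCGG on either strand.
CDKN1B: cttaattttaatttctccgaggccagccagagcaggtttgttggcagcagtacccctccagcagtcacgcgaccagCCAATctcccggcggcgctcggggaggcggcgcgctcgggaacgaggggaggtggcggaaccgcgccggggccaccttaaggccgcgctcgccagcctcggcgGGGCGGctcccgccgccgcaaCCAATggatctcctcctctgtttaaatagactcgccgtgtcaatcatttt
The CCAAT box occurs 2 times here and at least once in 32.0% of all windows. The FOXO letters TGTTTAC, present in 2.98% of windows on either strand, do not occur in this window or in any other of the 9 windows. At that share an absence says little.

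CDKN1A, the gene of p21 at chr6:36676463-36687332, rose late. It stood at 9.00 with vemurafenib, 8.78 with AT9283, 8.98 with both drugs and 8.68 with DMSO at 6 h, and at 9.73 with vemurafenib and 8.63 with DMSO at 16 h. The 16 h vemurafenib array was the highest, by 0.72 over the 6 h one. The difference was 0.33 at 6 h and 1.09 at 16 h, a 2.13-fold rise, and centring on the median made the 16 h value 0.96 and ended the call. At 6 h 29.9% of the 16 h difference was present, against 91.7% for CDKN1B. Limma on the 4 arrays gave CDKN1A 0.71 (SE 0.23, adjusted p = 0.200). Both inhibitors have 1 probe set each.

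**Figure D2:**
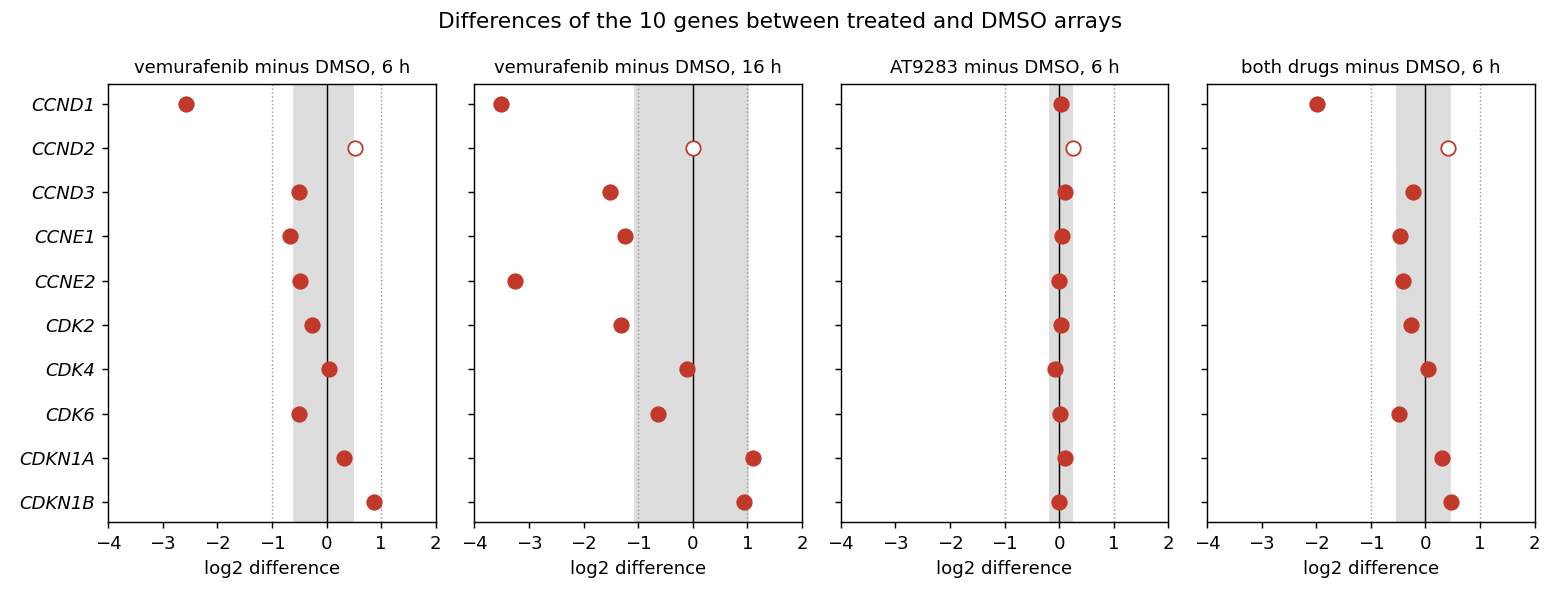
Log2 difference (horizontal axis) of each gene, with vemurafenib at 6 h and at 16 h, AT9283 at 6 h and both drugs at 6 h, each minus DMSO of the same time; grey bands span the 5th to 95th percentile of all genes at the floor, dotted lines mark the size rule and the open point is CCND2, below the floor. Of the 9 genes at the floor, CCND1, CCNE1 and CDKN1B lie outside the band with vemurafenib at 6 h. At 16 h CCND1, CCND3, CCNE1, CCNE2, CDK2 and CDKN1A do, and with both drugs CCND1 and, just, CDKN1B. All 9 are inside it with AT9283 alone.

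**Figure D3:**
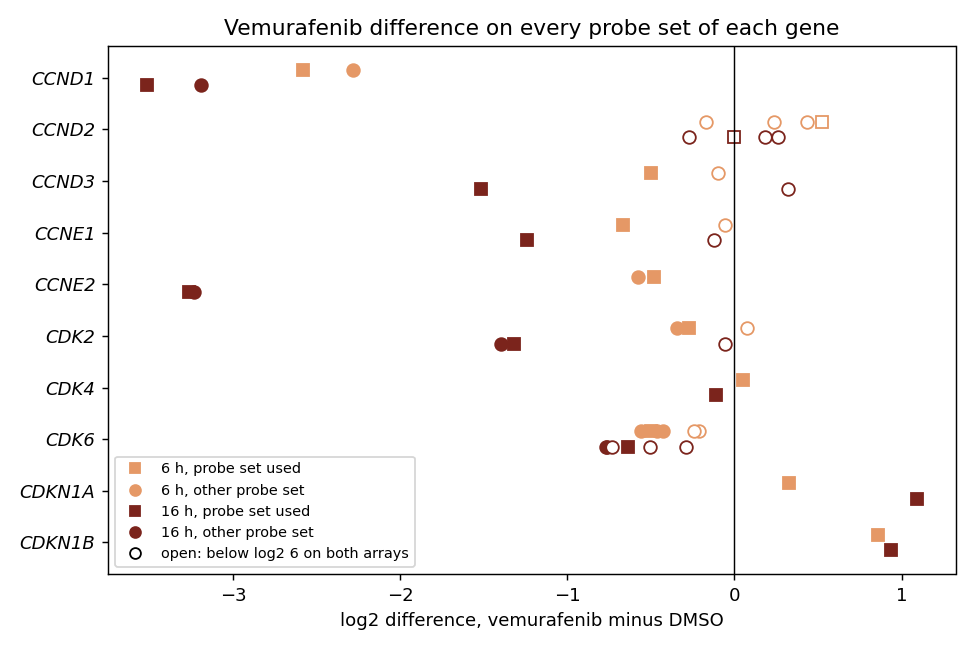
Log2 difference of vemurafenib minus DMSO (horizontal axis) on every probe set of each gene, at 6 h and 16 h; squares are the probe sets used, circles the others and open symbols those below log2 6 on both arrays. The second probe sets of CCND1 and CCNE2 and the one of CDK2 above the floor lie within 0.33 of those used, while those of CCND3, CCNE1 and CDK2 below the floor lie nearer 0.

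AT9283 alone left the 9 genes at the floor between -0.08 for CDK4 and 0.10 for CDKN1A, and 0 of 9 passed the rule, where 0.0224% of 8938 genes did. The 5th to 95th percentile range of all genes was -0.17 to 0.24, so each of the 9 lay inside it. CCND1 differed by 0.04 and CDKN1B by -0.01. A limma fit of all 6 arrays with main effects of both drugs and time called 0 of 9707 genes for AT9283, with 225 at an unadjusted p under 0.05, and 0 under each of its 3 alternatives. That fit has 2 residual degrees of freedom, which hold the interactions.

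With both drugs at 6 h CCND1 fell by 1.99 relative to DMSO, a 3.96-fold fall, and 0 of the other 8 genes passed the rule, where 1.93% of 9076 genes fell and 0.639% rose, 2.57% in all. Against AT9283 alone CCND1 fell by 2.02, where 1.97% of 9073 genes fell, 0.452% rose and 2.42% did either. CCNE1 differed from DMSO by -0.47, CDK6 by -0.48, CCNE2 by -0.41, CDK2 by -0.27 and CCND3 by -0.22, and CDKN1B by 0.46 and CDKN1A by 0.31. These comparisons share the DMSO array with that of vemurafenib alone, in which the same genes had -0.67, -0.50, -0.48, -0.27, -0.50, 0.86 and 0.33.

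Set directly against vemurafenib alone, the combination had CCND1 at 8.15 against 7.56, a difference of 0.59, and 0.200% of 8999 genes had a higher one. CDKN1B was at 9.30 in the combination against 9.70 with vemurafenib alone, a difference of -0.40, and 2.52% of genes had a lower one. CCND3 differed by 0.28 and CCNE1 by 0.20. CCNE2, CDK2, CDK4, CDK6 and CDKN1A lay between -0.02 and 0.08. Of the 9 genes 0 passed the rule here, where 0.322% of genes did. The vemurafenib difference with AT9283 less that without it was 0.56 for CCND1 and -0.39 for CDKN1B, both outside the 5th to 95th percentile range of -0.31 to 0.28 over 9707 genes. The second CCND1 probe set gave 0.51 for the combination minus vemurafenib. The 0.56 and -0.39 are no second line of support for the 0.59 and -0.40. They differ from them only by the AT9283 difference without vemurafenib, 0.04 for CCND1 and -0.01 for CDKN1B. Any error on the 6 h vemurafenib array enters both. All of these values rest on 1 array each and were not tested.

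The change of the vemurafenib difference from 6 h to 16 h had an SD of 0.49 over 9707 genes, with a 5th to 95th percentile range of -0.75 to 0.72. CCNE2 at -2.78, CDK2 at -1.05, CCND3 at -1.02 and CCND1 at -0.94 lay below that range, and CDKN1A at 0.77 lay above it. CCNE1 at -0.57, CDK4 at -0.16, CDK6 at -0.14 and CDKN1B at 0.08 lay inside. The times share no array, and it is not known here whether the 6 arrays were normalized as 1 set.

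Beyond the 10 genes, lists of related genes were compared between vemurafenib and DMSO. Over all genes at the floor 2.14% fell and 1.03% rose at 6 h, and 5.79% fell and 5.19% rose at 16 h. Of 18 measured S phase targets of E2F, 0 passed the rule after 6 h of vemurafenib, with a median of -0.01, and 13 fell after 16 h, with a median of -1.45 and all 18 below 0. UHRF1, which keeps DNA methylation at replication, fell most (-2.13). The origin licensing factor CDC6 (-1.76), the replication factor GINS2 (-1.67) and the helicase subunit MCM4 (-1.65) followed. Of 13 RB family and E2F genes, 12 of them at the floor at 16 h, 4 fell at 16 h and 0 at 6 h. They were E2F8 (-1.87) and E2F7 (-1.51), repressors of the family, E2F3 (-1.31), an activator, and RBL1 (-1.22), which encodes the RB relative p107. RB1 itself differed by -0.18 at 6 h and -0.17 at 16 h.

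Among 8 genes of CDK activation, the phosphatase CDC25A, which removes inhibitory phosphates from CDK2, fell by 2.63 at 16 h and had -0.89 at 6 h. The other 7 genes did not pass the rule at either time. Of 13 genes that turn over cyclins and inhibitors only DTL, an adaptor of the ubiquitin ligase that degrades p21, passed the rule, falling by 2.57 at 16 h. SKP2, which marks p27 for degradation, had a difference of -0.03 at 6 h and -0.81 at 16 h. Of 4 other measured CDK inhibitor genes 2 were at the floor. CDKN2D, which encodes p19 and restrains CDK4 and CDK6, fell by 1.17 at 16 h and had -0.87 at 6 h. CDKN2A lay below the floor on all arrays. In each of these lists 1 gene fell at 16 h, where 5.79% of all genes at the floor did. Counts of 1 are too few to set a list apart from that share.

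Among the 5 cyclins and kinases of S phase, G2 and mitosis only CCNA2, the S phase cyclin, fell at 16 h, to 8.72 with vemurafenib against 9.72 with DMSO, which only just passed the rule. CCNB1, the mitotic cyclin, had a difference of -0.50. Of 8 cyclins outside the core G1 set CCNG2, known from arrested cells, rose by 1.69 after 6 h of vemurafenib. It stood at 7.09 with vemurafenib, 5.40 with AT9283, 5.74 with both drugs and 5.41 with DMSO at 6 h, so that it fell by 1.35 in the combination relative to vemurafenib alone. At 16 h it stood at 8.05 with vemurafenib and 7.15 with DMSO. Of 7 measured genes of the FOXO and MYC axis 5 were at the floor, and MYC fell at both times (-2.13 and -3.30). MYC stood at 5.31 with vemurafenib, 7.23 with AT9283, 4.36 with both drugs and 7.44 with DMSO at 6 h, and at 3.94 with vemurafenib and 7.24 with DMSO at 16 h. MYC thus lay below the floor on all 3 arrays with vemurafenib. FOXO3, a factor known to raise p27, differed by 0.35 and 0.93, under the rule at both times. FOXM1 differed by 0.09 and -0.14, MXI1 by -0.00 and 0.56, and MNT by 0.01 and 0.43. A link of FOXO3 to CDKN1B was not tested. Over all genes at the floor 1.03% rose and 2.14% fell at 6 h, and 5.79% fell at 16 h. With 1 gene over the rule, none of these lists can be set apart from those shares.

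CDKN1A is a p53 target, and of 13 other measured p53 targets 11 were at the floor at 6 h and 12 at 16 h. Of these, 0 rose at 6 h and 3 at 16 h, where 1.03% and 5.19% of all genes did. The 3 were TP53INP1 (2.67), ZMAT3 (1.09) and TP53I3 (1.05). MDM2, the ubiquitin ligase of p53, differed by -0.04 and 0.12, and BAX by -0.14 and -0.04. The genes of that list at the floor had a median of 0.33 at 6 h and 0.38 at 16 h, against 0.02 and -0.00 over all genes at the floor. The list also differed with no drug. In DMSO at 16 h minus DMSO at 6 h its median was 0.18, with 10 genes at the floor above 0 and 1 below. With AT9283 alone 0 genes of these 9 lists passed the rule, where 0.0224% of 8938 genes did.

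**Figure D4:**
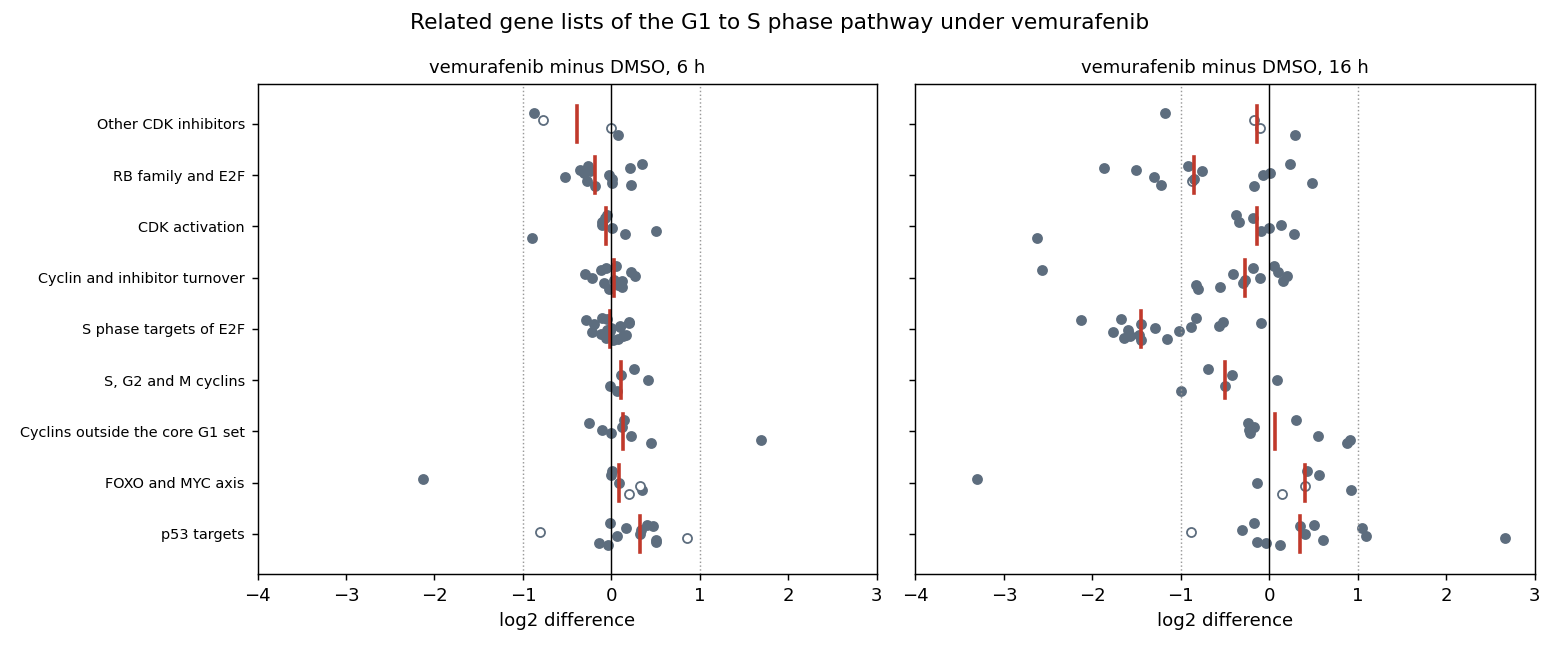
Log2 difference of vemurafenib minus DMSO (horizontal axis) for every measured gene of 9 related lists, at 6 h (left) and 16 h (right); red bars are list medians, open points lie below log2 6 on both arrays and dotted lines mark the size rule. The 18 S phase targets of E2F centre on -0.01 at 6 h and -1.45 at 16 h.

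Likeness of profile was measured as the root mean square difference between mean-centred log2 values over the 6 arrays, among 9344 named genes that reached the floor on some array, for the 7 genes at the floor whose range was at least 1. Nearest to CCND1 were FOSL1 (0.26), an AP-1 factor induced by ERK, CEMIP (0.32), which degrades hyaluronan, and UBASH3B (0.34), a phosphatase. FOSL1 differed by -2.51 at 6 h and -3.70 at 16 h. Nearest to CCNE2 were CYB5R2 (0.11), the integrin gene ITGB3 (0.13) and the replication factor MCM10 (0.16). At 6 h and 16 h CYB5R2 had -0.48 and -2.97, ITGB3 -0.70 and -3.58, and MCM10 -0.24 and -3.16. Nearest to CCND3 were BRIX1 (0.06), a ribosome assembly factor, DCLRE1B (0.06), a nuclease, and CCDC86 (0.07).

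CDK2 lay nearest to PHF10 (0.02), a chromatin remodelling subunit, PXDN (0.06) and MTFP1 (0.07). CCNE1 lay nearest to IMP3 (0.05), SLC35G2 (0.06) and DMRT2 (0.07), CDK6 to KLHL21 (0.04), TRAF3 (0.05) and EHD4 (0.05), and CDKN1A to RSRP1 (0.04), CORO1B (0.04) and SMARCD3 (0.05). Likeness over 6 arrays says nothing of shared control.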

How the data were processed

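The authors deposited 1 linear intensity per probe set and array. RMA was used, per the submitters' processing notes, which give no version, and no further step is stated. Total RNA was labelled with biotin as cRNA, per the labels' protocols. The deposited intensities were converted to log2.

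Of 54675 probe sets, 41097 named 1 gene, 1801 several and 11777 none in the platform annotation. In 2 blocks, 1102 rows in all, the 6 h values were misaligned: the DMSO arrays had an r of 0.440 as deposited and 0.983 with the order restored, against 0.992 elsewhere. These, 16 rows of smaller blocks and 62 control rows were left out. For each gene the probe set with the highest mean was used, which gave 19676 genes. Limma 3.58.1 in R 4.3.3 was fitted with a trended prior to genes with at least 1 array at log2 6, with Benjamini-Hochberg adjustment over all genes fitted. On simulated arrays, the size rule for vemurafenib at 6 h over 19676 genes recovered 50% of changes of 1 and 96% of changes of 1.5 with 0 false calls. Changes of 1 were planted at the threshold itself, so a recovery of about 50% was fixed in advance. Limma over 9228 genes recovered 100% of both with 12 false calls, where the planted changes did not differ between times. The simulated noise had 1 SD for all genes, and genes under the floor could not pass the size rule. The simulated false calls therefore give no error rate for the real arrays, where 25 of 9055 genes passed the rule between the DMSO arrays. The genes, lists and tests were chosen with earlier results of these data known. List genes were named by size of difference, up to 4 per list and comparison, among those over the rule; other list genes were chosen after their values were seen. Alternatives covered scaling, probe set choice, the floor, added background, the control array and the fit.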

Additional observations from a re-analysis of the deposited data

Results flagged for a closer look

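In 4 cases a gene's differences had opposite signs in a pair of settings with 1 array each, and the difference between them was not tested. CDK4 had a vemurafenib difference of -0.11 at 16 h and 0.05 at 6 h. The AT9283 difference of CDK2 was -0.00079 with vemurafenib and 0.03 without it, and that of CDKN1A was -0.0200 with vemurafenib and 0.10 without it. CCND2, below the floor on all arrays, had -0.12 with vemurafenib and 0.25 without it. For CDK2, CDK4 and CDKN1A all of these values were below the SD of 0.24 across genes between the DMSO arrays.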

How the results depend on the processing

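No paired analysis was possible because each condition had 1 array and the labels number no replicates; the block in the limma fit of 4 arrays is time. Of 520 recomputed differences of the 10 genes 505 moved by less than 0.24, the SD across genes of the DMSO pair, 15 moved by more and 0 of those over the size rule changed sign. Many could hardly move, so this count is no measure of robustness. Restoring the order of misaligned values, and omitting probe sets that can match several transcripts, left every value as it was. Centring shifted all genes of a comparison alike, by 0.13 at most. CDK4, CDKN1A and CDKN1B have no second probe set. Across all settings 4 calls on the 10 genes were lost and 1 was gained. The mean over probe sets left 2 of the 5 genes that fell at 16 h, and the genes that rose were 0 with median centring and 2 with quantile normalization. Over all genes, the mean over probe sets gave 186 genes over the rule for vemurafenib at 6 h in place of 289, 675 at 16 h in place of 1039, 143 in place of 233 for the combination minus DMSO, 134 in place of 220 for the combination minus AT9283, 10 in place of 25 for the DMSO pair and 1 in place of 2 for AT9283. The DMSO pair had 79 with misaligned rows kept, 51 and 12 with floors at log2 5 and 7, and 120 with none. AT9283 had 1 with centring on the 75th percentile, 4 with the floor at 5 or none, and 0 with it at 7. Limma called 113 genes for vemurafenib, 43 without trend, 463 with all 6 arrays and 173 after quantile normalization. Intensities near background limit the size of falls to levels under log2 6. This holds at 16 h for CCNE2 and for the second CCND1 probe set, and the CCND1 probe set used was close to that level. The causes of these shifts were not tested. The omission of the 4 smaller misaligned blocks and the control rows, and the alternative with the order of misaligned values restored, were chosen after the data were seen. So were, for the counts over all genes alone, a control averaged over the DMSO arrays and the omission of probe sets that can match several transcripts. These alternatives ended no call on the 10 genes.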

Other observations

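Part of the pathway differed between the DMSO arrays, with no drug. Of 18 S phase targets of E2F, 17 were lower at 16 h than at 6 h, with a median of -0.17 against -0.04 over all genes at the floor, and 0 passed the size rule. E2F1, an activator of these genes, fell by 1.45, to 5.85 in DMSO at 16 h, against 7.30 in DMSO at 6 h. CCNG2 rose by 1.74 in the same pair. CCND1 differed by -0.58, which was lower than in 98.9% of genes, CDK6 by -0.45 and CCND3 by -0.35, while CDK2 differed by 0.26 and CDKN1A and CDKN1B by -0.04 and 0.03.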
